A study of Mus musculus with 24 samples.

Results

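Plasma extracellular vesicles were compared between 2 times after bile duct ligation: 6 libraries taken 15 days after surgery and 6 taken 8 days after surgery, 12 of the 24 libraries of the study. Extracellular vesicles are membrane-bound particles that cells release into blood, and their RNA can carry transcripts of the tissue they came from. All mice were male C57BL/6J. The ligated mice had the common bile duct tied, a surgical model of obstructive cholestasis, and sham-operated mice of the same days (6 libraries each) served here to show how the same genes differed by day without ligation. Vesicles were precipitated from 250 µl of plasma with ExoQuick, a polymer reagent that can also bring down RNA outside vesicles, and the RNA was sequenced without enrichment for polyadenylated RNA and without removal of ribosomal RNA, 12 libraries to a pool. The labels name the tissue liver and the site extracellular vesicles. They do not say that each library came from its own mouse, so p-values measure the spread between these libraries.

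When bile cannot drain, bile acids build up in the liver and hepatocytes are injured, bile ductules multiply and stellate cells lay down collagen. Hepatocytes make most of the plasma proteins, among them albumin, transferrin, clotting factors and the acute phase proteins, and hold the enzymes of the urea cycle, drug oxidation and bile acid synthesis. In blood, platelets and red cells are large sources of vesicles and of plasma RNA. In these bulk libraries, fewer vesicles of a cell type and less RNA of a gene per vesicle cannot be told apart.

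The day 15 ligated libraries held 315404 to 465744 counts and the day 8 ligated libraries 167939 to 937963. Within day 8, libraries 1 to 3 held 167939 to 304082 counts and libraries 4 to 6 held 661186 to 937963, so day 15 lay above the one set and below the other (exact permutation test, two-sided, p = 0.0119 each, the smallest p 6 against 3 allows). Sham libraries held 157133 to 351201 counts at day 15 and 101733 to 824640 at day 8, with the same step between day 8 libraries 1 to 3 and 4 to 6. The labels give no batch for this step. The numbers of called genes, many gene lists and part of the named genes are therefore also given against each set of day 8 libraries alone. The gene model Lars2 took 41.3% to 52.7% of counts at day 15 and 31.6% to 48.3% at day 8. Day 8 library 3 stood apart: 9 predicted genes led by Gm10800 and Gm10801, chosen after their values were seen, held 30.9% of its counts. Day 8 library 5 held 547 counts of Bpifa1 and 166 of Scgb1a1, secreted proteins of airway epithelium, against 0 and at most 1 in every other library.

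Of 21960 genes in the table, 4112 passed the filter on low counts and were tested with edgeR's quasi-likelihood test. At an adjusted p under 0.05, 93 genes were higher at day 15 than at day 8 (2.26% of the genes tested) and 86 were lower (2.09%), together 4.35%, out of 706 genes with an unadjusted p under 0.05. Of the 93 genes that rose, 41 stood in one of the hepatocyte gene lists and 41 in no list. The genes that fell included 17 of the platelet list and 6 of the erythroid list. In 26 genes all 6 day 15 values lay above all 6 day 8 values (0.632% of the genes tested), and in 14 all lay below (0.34%).

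The direction of the genes that rose was the same against both sets of day 8 libraries, and that of the genes that fell was not in every gene. Both sets were part of the comparison that called these genes and are set against the same day 15 libraries. Agreement of sign is therefore partly built in. All 93 higher genes were also positive against libraries 1 to 3 alone (median log2 fold change 1.41) and against libraries 4 to 6 alone (2.37), against 1.85 with all 6. Of the 86 lower genes, 86 were negative against libraries 4 to 6 (median -1.94) but 72 against libraries 1 to 3 (median -0.49), and 49 of the 86 differed between the sets of day 8 libraries themselves, where 185 genes were higher in libraries 4 to 6 than in 1 to 3 (4.5%) and 73 lower (1.78%), 6.27% of the genes tested in all. With libraries 1 to 3 alone edgeR called 0 genes, 338 having an unadjusted p under 0.05 and the smallest adjusted p being 0.053. With libraries 4 to 6 alone it called 254 higher (6.18%) and 325 lower (7.9%), together 14.1%. The median standard error of a log2 fold change was 0.411 against libraries 1 to 3 and 0.319 against libraries 4 to 6.

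Single libraries moved both counts. Higher genes numbered 49 without day 15 library 1, 29 without day 15 library 5, and 36, 37 and 40 without day 8 libraries 4, 5 and 6, but 160 without day 8 library 3. Lower genes numbered 22, 31, 40 and 8 without day 15 libraries 1, 2, 4 and 5, and 176, 5, 8 and 37 without day 8 libraries 3, 4, 5 and 6. In all 12 refits that each left out 1 ligated library, 28 of the 93 higher genes stayed called, 21 of them in the hepatocyte lists, and 4 of the 86 lower genes did, among them Bcap31, Isg20 and Laptm5, named after their values were seen.

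**Figure D1:**
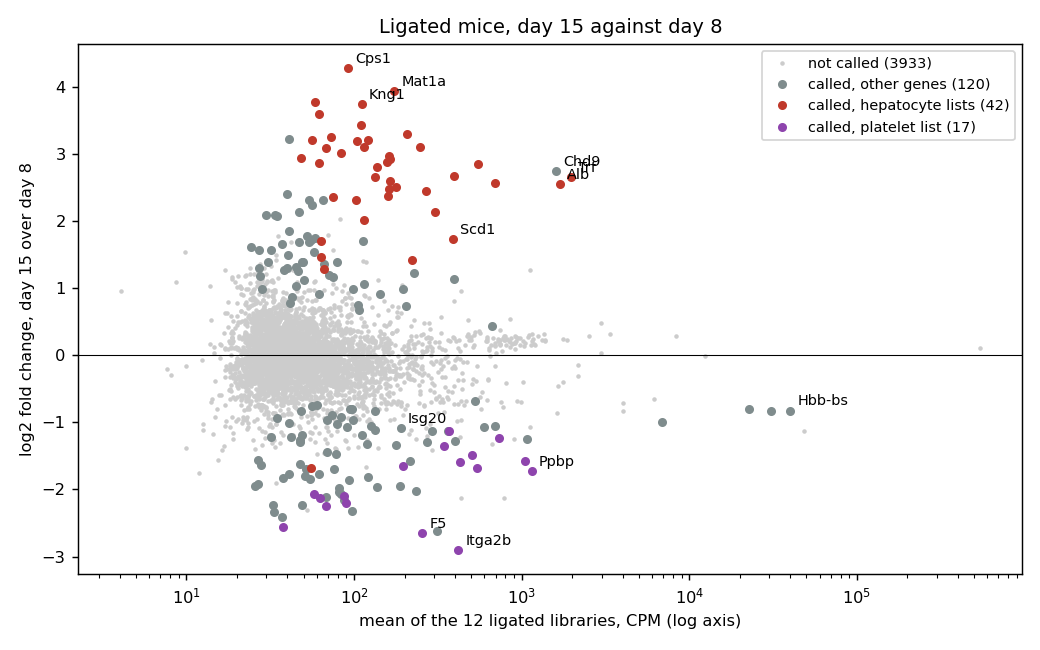
Each point is 1 of the 4112 genes tested, placed by its mean normalised count in the 12 ligated libraries (CPM, log axis) and its log2 fold change, day 15 over day 8. Called genes of the hepatocyte lists (red) lie above 0 except Pros1, and the 17 called genes of the platelet list (purple) lie below 0, among them F5, which is on a list of each kind and is drawn in purple.

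The share of counts held by hepatocyte transcripts was higher at day 15. The 8 hepatocyte lists together, 265 genes in the table, held 0.882%, 1.87% and 4.98% of the counts of a library (lowest, median, highest) at day 15, against 0.367%, 0.45% and 1% at day 8. Only day 8 library 3 reached into the day 15 range, above day 15 libraries 6 (0.882%) and 3 (0.992%). When its 9 predicted genes were left out of the total, its share was 1.45%. Means were 2.19% ± 1.5 at day 15 and 0.547% ± 0.241 at day 8 (SD, n = 6 each), 0.627% in day 8 libraries 1 to 3 and 0.467% in libraries 4 to 6. Sham libraries held 0.287% ± 0.0556 at day 15 and 0.273% ± 0.0738 at day 8, the level these lists reach without ligation. The 12 defining hepatocyte markers, among them Alb, Apob and Cps1, were all detected and held 2691, 6557 and 20430 CPM (counts scaled to a fixed library total) at day 15, against 360.0, 719 and 3443 CPM at day 8. In the sham libraries they held 46.7 to 169 CPM.

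**Figure D2:**
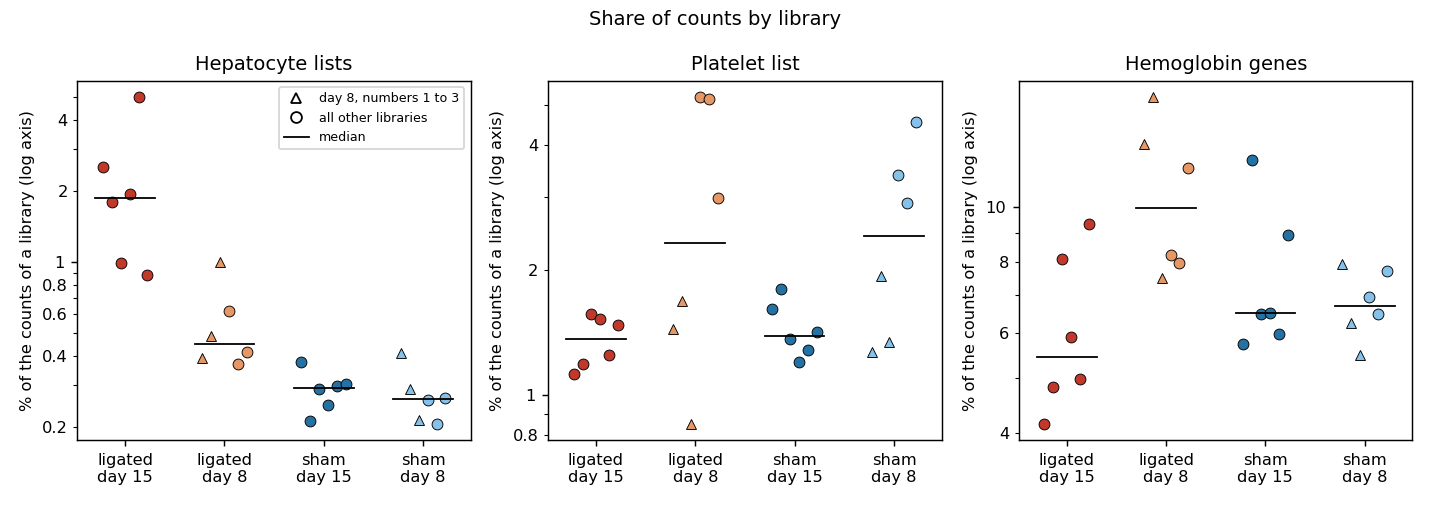
Share of each library's counts (%, log axis) held by the hepatocyte lists, the platelet list and the hemoglobin genes, for ligated day 15, ligated day 8, sham day 15 and sham day 8; triangles are day 8 libraries 1 to 3 and lines are medians. Hepatocyte shares at day 15 are 0.882% to 4.98%, and the platelet shares of day 8 libraries 4 to 6 lie above every day 15 library in ligated and sham mice.

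Secreted plasma proteins held the largest part of the hepatocyte-list counts at day 15. Of 40 listed genes 18 were tested, 15 rose and 0 fell, with a median log2 fold change of 2.83 over the 18, against -0.04 over all 4112 genes tested. The filter on low counts could be passed through the day 15 libraries alone. Members low at day 8, such as Rbp4 and Kng1, may have been tested only because they were high at day 15. In this and the other hepatocyte lists, counts and medians of tested members therefore partly follow from the filter. The median was 1.79 against day 8 libraries 1 to 3, 3.92 against libraries 4 to 6 and 0.66 between the days in sham mice. The number that rose lay between 10, without day 15 library 5, and 16, without day 8 library 3. A further 19 listed genes had too few counts to be tested but at least 10 over the ligated libraries, and in 19 of 19 the summed normalised count was larger at day 15. Over all such genes of the table, 69.4% were.

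Trf (chr9:103204001-103230444, minus strand) encodes transferrin, the iron carrier of plasma. It measured 1077, 2551 and 7681 CPM at day 15 (lowest, median, highest; CPM of single genes are normalised by TMM), against 196, 332 and 1700.3 CPM at day 8. The 2 groups overlapped through day 8 library 3 alone, which lay above day 15 libraries 3 and 6, and Trf rose (log2 fold change 2.65, SE 0.48, adjusted p = 0.00207). The fold change was 2.13 against day 8 libraries 1 to 3 and 3.40 against libraries 4 to 6, and sham mice held 67.6 CPM at day 15 and 56.3 CPM at day 8.

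Alb (chr5:90460897-90476602, plus strand) encodes albumin, the main protein of plasma. It measured 773, 2188 and 8085 CPM at day 15, against 86.2, 214 and 1996 CPM at day 8. Day 8 library 3, at 1996 CPM, overlapped the day 15 range, the other 5 day 8 libraries reaching 321 CPM at most. Alb rose (log2 fold change 2.54, SE 0.70, adjusted p = 0.0372), but its call was lost without day 15 libraries 1 (0.0653), 2 (0.0571), 4 (0.0519), 5 (0.137) and day 8 libraries 1 (0.063), 2 (0.0654), 4 (0.0925), 5 (0.0977), 6 (0.0951), adjusted p in brackets. Against day 8 libraries 1 to 3 the log2 fold change of Alb was 1.76, and against libraries 4 to 6 it was 4.14. DESeq2's test gave an adjusted p of 0.119.

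Serpina1b, a mouse gene for alpha-1-antitrypsin, the inhibitor of neutrophil elastase, showed the same order without overlap. It measured 91.9, 224 and 975 CPM at day 15, against 19.2, 40.9 and 89.8 CPM at day 8 (log2 fold change 3.29, SE 0.51, adjusted p = 0.000952). Every day 15 library lay above every day 8 library. Serpina1a (3.10, adjusted p = 0.00373) and Serpina1c (2.80, 0.00188) also rose. These genes are near-identical copies whose reads the counting may have divided between them, so their separate values are uncertain.

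Kng1, the kininogen that releases bradykinin, measured 38.0, 169.7 and 498 CPM at day 15, against 3.19, 7.7 and 73.9 CPM at day 8 (log2 fold change 3.74, SE 0.58, adjusted p = 0.000952). Rbp4, which carries retinol from liver to tissues, measured 34.9, 81.1 and 293 CPM at day 15, against 0, 2.85 and 47.5 CPM at day 8 (log2 fold change 3.76, SE 0.60, adjusted p = 0.00101). In both genes day 8 library 3 was the highest of its group and lay above day 15 library 6, for Rbp4 also above day 15 library 3. A value of 0 allows up to 3 counts, which is 7.78 to 11.5 CPM in the day 15 libraries and 3.59 to 21.5 CPM in the day 8 libraries. Apob, the protein of very low density lipoprotein, rose by 2.85 (SE 0.52, adjusted p = 0.00214) and Apoa1, that of high density lipoprotein, by 2.92 (SE 0.51, adjusted p = 0.00188). Mug1, a protease-trapping murinoglobulin of rodents, rose by 3.43 (SE 0.61, adjusted p = 0.00188). Kng1, Rbp4, Apob, Apoa1, Mug1, Serpina1b and Trf stayed called in each of the 12 refits without 1 ligated library.

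The bases before the start sites of secreted protein genes that rose are given next because HNF1 proteins, transcription factors of hepatocytes, are known to bind a half-site in such promoters. The 250 bases before the start were read from RefSeq promoters of build GRCm38.p6 for the 3 genes with the smallest p, among called genes of the hepatocyte lists with 1 listed start site and the letters GTTAAT on either strand, and for Alb. They lie at chr12:103738190-103738439 on the minus strand for Serpina1b, chr12:103904951-103905200 on the minus strand for Serpina1c, chr6:121838291-121838540 on the plus strand for Mug1 and chr5:90460620-90460869 on the plus strand for Alb. Each is written 5′ to 3′ on the strand of the gene, and capitals mark GTTAAT or its complement read backwards, ATTAAC.
Serpina1b: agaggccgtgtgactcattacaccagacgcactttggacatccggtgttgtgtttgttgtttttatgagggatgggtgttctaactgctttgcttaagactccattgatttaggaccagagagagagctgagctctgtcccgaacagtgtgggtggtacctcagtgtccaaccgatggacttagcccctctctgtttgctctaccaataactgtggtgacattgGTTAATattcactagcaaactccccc
Serpina1c: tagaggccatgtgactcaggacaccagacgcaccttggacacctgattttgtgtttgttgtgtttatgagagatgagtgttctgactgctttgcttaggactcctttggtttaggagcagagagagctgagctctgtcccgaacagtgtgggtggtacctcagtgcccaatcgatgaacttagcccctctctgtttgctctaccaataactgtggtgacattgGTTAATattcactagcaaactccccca
Mug1: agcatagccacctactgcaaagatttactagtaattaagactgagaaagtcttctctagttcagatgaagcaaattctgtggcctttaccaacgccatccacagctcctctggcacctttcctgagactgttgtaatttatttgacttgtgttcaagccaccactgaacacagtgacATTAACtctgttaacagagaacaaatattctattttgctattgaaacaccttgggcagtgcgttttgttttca
Alb: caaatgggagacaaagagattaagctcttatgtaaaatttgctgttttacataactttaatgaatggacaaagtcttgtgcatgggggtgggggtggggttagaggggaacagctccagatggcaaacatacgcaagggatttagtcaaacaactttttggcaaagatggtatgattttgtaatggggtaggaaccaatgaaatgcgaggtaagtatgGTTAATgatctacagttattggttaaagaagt
The first letter of the match stood 26 bases before the start in Serpina1b, 27 in Serpina1c, 73 in Mug1 and 32 in Alb. Of the 41 called genes of the hepatocyte lists 29 had a promoter in the table, and 10 of these (34.5%) held GTTAAT on either strand. Among the other higher genes 4 of 44 did (9.09%), among the lower genes 4 of 69 (5.8%), among the genes tested 149 of 3185 (4.68%) and among all genes with a promoter 2023 of 27025 (7.49%). The letters TATAAA stood in 7 of the 29 (24.1%), in 8.48% of the genes tested and in 14.3% of all genes. Hepatocyte-list genes that were not called were not counted apart, so these shares cannot be tied to the rise. Similar promoters, such as those of Serpina1b and Serpina1c, count separately. A match describes the letters only and does not show binding.

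Acute phase proteins, which hepatocytes make in larger amounts during inflammation, rose in 11 of 12 tested genes of 30 listed, with 0 lower and a median of 2.72. Against day 8 libraries 1 to 3 the median was 1.67, against libraries 4 to 6 3.91, and without day 8 library 3 it was 3.81. Between the days in sham mice it was 0.83. The number that rose was 7 without day 15 library 5 or without any one of day 8 libraries 4, 5 and 6. The 3 fibrinogen chains, the substrate of the clot, rose. Fgb measured 108, 237 and 586 CPM at day 15, against 11.2, 23.6 and 137 CPM at day 8 (log2 fold change 2.87, SE 0.49, adjusted p = 0.00207), with day 8 library 3 above the lowest day 15 libraries. Fgg rose by 3.20 (SE 0.58, adjusted p = 0.0029) and Fga by 2.47 (SE 0.60, adjusted p = 0.0202), but Fga lost its call without day 15 library 5 (0.0721) and day 8 libraries 4 (0.0682), 5 (0.0729), 6 (0.0668), adjusted p in brackets.

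Hpx, the heme carrier hemopexin, measured 368, 1246 and 2335 CPM at day 15, against 33.5, 86.6 and 839.6 CPM at day 8 (log2 fold change 2.57, SE 0.56, adjusted p = 0.0114). Hp, the hemoglobin carrier haptoglobin, rose by 2.13 (SE 0.52, adjusted p = 0.0202), a call lost without day 15 library 5 (0.0728) and day 8 libraries 4 (0.0681), 5 (0.0729), 6 (0.0646), adjusted p in brackets. Orm1, an orosomucoid, rose by 3.60 (SE 0.59, adjusted p = 0.00188), and Serpina3k by 3.10 (SE 0.51, adjusted p = 0.00188). Lcn2, a siderophore binder also made by neutrophils, had a value of 0.87 (SE 0.52, adjusted p = 0.404) and was the tested member that was not called. Between the days in sham mice Hpx, Hp, Orm1, Serpina3k and Lcn2 stood at 0.5, 1.1, 2.3, -2.1 and 2.3 (SE 2.26, 0.79, 1.76, 2.05 and 0.76). The serum amyloid genes Saa1 and Saa2 had too few counts to be tested, 30 and 23 counts over the day 15 libraries against 11 and 9 over the day 8 libraries, ratios of 3.87 (1.88 to 8.55) and 3.62 (1.62 to 8.9) after normalisation with exact 95% intervals for counting error only.

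Complement and coagulation genes were positive in 8 of 10 tested of 34 listed; 2 rose, 2 fell, and the median was 0.43, with 0.12 against day 8 libraries 1 to 3, 0.84 against libraries 4 to 6 and 0.76 between the days in sham mice. Plg, plasminogen, measured 28.5, 101 and 301 CPM at day 15, against 0, 9.84 and 63.4 CPM at day 8 (log2 fold change 3.08, SE 0.60, adjusted p = 0.00524), and Cfb, complement factor B, rose by 1.70 (SE 0.47, adjusted p = 0.0358). The lower genes were F5 (coagulation factor V), which is also on the platelet list, and Pros1 (protein S), which platelets contain too. F5 measured 28.5, 68.4 and 104 CPM at day 15, against 50.2, 302 and 957 CPM at day 8 (log2 fold change -2.65, SE 0.73, adjusted p = 0.0358), yet 0.05 on the log2 scale against day 8 libraries 1 to 3 alone. Among 22 listed genes under the filter with at least 10 counts, 20 had more at day 15, with a median ratio of 8.55, against 1.28 over all such genes of the table. Plg kept its call in every refit without 1 library, and Cfb, F5 and Pros1 lost theirs in 8, 9 and 4 of the 12, the highest adjusted p being 0.125, 0.107 and 0.0941. Between the days in sham mice Plg, Cfb, F5 and Pros1 stood at -1.62, 1.65, -3.18 and -1.45 (SE 2.08, 0.93, 0.82 and 0.44).

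Enzymes of the urea cycle and of amino acid metabolism rose in 6 of 9 tested genes of 37 listed, 0 fell, and the median was 2.60. The median was 1.76 against day 8 libraries 1 to 3 and 2.91 against libraries 4 to 6, and 1.67 without day 15 library 5, when 3 genes were called. Cps1 (chr1:67123026-67231259, plus strand), carbamoyl phosphate synthetase of the first step of the urea cycle, had the largest log2 fold change of the 179 called genes. It measured 41.2, 110.2 and 532 CPM at day 15, against 0, 8.98 and 31.7 CPM at day 8 (log2 fold change 4.28, SE 0.76, adjusted p = 0.00188), with no overlap. The fold change of Cps1 was 3.25 against day 8 libraries 1 to 3 and 4.83 against libraries 4 to 6.

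Mat1a (chr14:41105035-41124412, plus strand), the liver enzyme that makes S-adenosylmethionine, measured 76.0, 213 and 913 CPM at day 15, against 3.19, 19.2 and 84.5 CPM at day 8 (log2 fold change 3.93, SE 0.67, adjusted p = 0.00207). Day 8 library 3 lay above the lowest day 15 library. Gnmt and Ahcy, which work in the same methionine cycle, rose by 3.21 and 2.31 (adjusted p = 0.0317 and 0.00925). Ass1, argininosuccinate synthase of the urea cycle, rose by 2.65 (SE 0.49, adjusted p = 0.00235). Cps1, Mat1a and Ass1 stayed called without any 1 ligated library. Gnmt and Ahcy were called in 7 and 11 of the 12 refits, their highest adjusted p, without day 15 library 5, being 0.125 and 0.0521. All 27 listed genes under the filter with at least 10 counts had more at day 15.

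Of the sugar and lipid enzymes of liver, 3 of 9 tested genes of 35 listed rose and 0 fell, with a median of 0.63, and 0 were called without day 15 library 5. Scd1, the desaturase that makes oleic acid, measured 295, 482 and 1144 CPM at day 15, against 139, 174 and 223 CPM at day 8 (log2 fold change 1.73, SE 0.49, adjusted p = 0.0409), with no overlap. Its fold change was near equal against both sets, 1.89 against day 8 libraries 1 to 3 and 1.61 against libraries 4 to 6. The call of Scd1 was lost without day 15 libraries 1 (0.0805), 4 (0.0533), 5 (0.12) and day 8 libraries 1 (0.0611), 2 (0.067), 4 (0.0775), 5 (0.104), 6 (0.0805), adjusted p in brackets.

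Idi1, Msmo1 and Hmgcs1, enzymes of cholesterol synthesis that stood in no list and were chosen after their values were seen, were also higher. Idi1 measured 17.4, 38.4 and 161 CPM at day 15, against 5.99, 8.9 and 47.5 CPM at day 8 (log2 fold change 2.08, SE 0.58, adjusted p = 0.0402), in overlap. Msmo1 measured 34.8, 42.9 and 61.1 CPM at day 15, against 1.6, 12.6 and 37.0 CPM at day 8 (log2 fold change 2.09, SE 0.59, adjusted p = 0.0426), and Hmgcs1 rose by 1.54 (adjusted p = 0.0426). Idi1, Msmo1 and Hmgcs1 were called in 5, 3 and 3 of the 12 refits without 1 ligated library, the highest adjusted p being 0.266, 0.141 and 0.211.

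Cytochromes P450 and conjugation enzymes rose in 4 of 10 tested genes of 43 listed, and 0 fell, with a median of 1.51. Against day 8 libraries 1 to 3 the median was 1.03, and against libraries 4 to 6 it was 1.99. Between 0, without day 15 library 5 or day 8 library 4, and 8, without day 8 library 3, were called when 1 library was left out. Cyp3a11, a main drug and bile acid hydroxylase of mouse liver, measured 83.0, 176 and 861 CPM at day 15, against 9.58, 15.9 and 174 CPM at day 8 (log2 fold change 2.97, SE 0.64, adjusted p = 0.013). Day 8 library 3 again overlapped the day 15 range. Cyp2e1, which oxidises ethanol and lies around the central vein, rose by 2.94 (SE 0.73, adjusted p = 0.0217). The call of Cyp2e1 was lost without day 15 library 5 (0.201) and day 8 libraries 4 (0.0765), 5 (0.0845), 6 (0.0701) and that of Cyp3a11 without day 15 library 5 (0.0521) and day 8 library 4 (0.0503), adjusted p in brackets. Gstm3, a glutathione transferase on the list of NRF2 and oxidative stress genes, measured 38.0, 52.8 and 187 CPM at day 15, against 0, 3.77 and 26.4 CPM at day 8 (log2 fold change 3.23, SE 0.59, adjusted p = 0.00608), with no overlap. Over the NRF2 list 2 of 21 tested genes rose, 0 fell and the median was 0.03.

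Bile acid genes were too low to be tested singly, and none of the 28 listed passed the filter. Together they held 0.0166% to 0.0887% of counts at day 15 and 0.00584% to 0.0155% at day 8. These ranges did not overlap, but the highest day 8 value is that of library 3, where the 9 predicted genes held 30.9% of counts. With those genes left out of the totals, library 3 would reach into the day 15 range. Cyp7a1, the rate-limiting enzyme of bile acid synthesis, had 49 counts over the 6 day 15 libraries and 3 over the 6 day 8 libraries, a ratio of 23.2 after normalisation (exact 95% interval 7.47 to 116, counting error only). Day 15 library 5 held 36 of the 49 counts, and the other 5 day 15 libraries 1 to 4 each, against 0 or 1 in each day 8 library. Abcc2, the pump that moves conjugated bilirubin into bile, had 103 counts at day 15 and 9 at day 8, a ratio of 16.2 (8.22 to 36.5), with 56 of the 103 in day 15 library 5. Abcb11, the bile salt export pump, had 70 counts at day 15 and 15 at day 8, a ratio of 6.62 (3.75 to 12.4), with 40 of the 70 in that library. Hnf4a, a transcription factor of hepatocytes, had 109 counts at day 15 and 29 at day 8, a ratio of 5.33 (3.51 to 8.33). Mup20, a major urinary protein, had 42 counts at day 15 and 43 at day 8, a ratio of 1.39 (0.884 to 2.17), an interval that holds equality.

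Bile duct genes were few. Of 5 tested genes of 24 listed, 1 rose, all 5 were positive, and the median was 1.24, but 0.56 against day 8 libraries 1 to 3 and 2.53 against libraries 4 to 6. Krt18, a keratin of ducts that is present in hepatocytes too, measured 34.9, 86.3 and 218 CPM at day 15, against 6.05, 16.0 and 84.5 CPM at day 8 (log2 fold change 2.31, SE 0.59, adjusted p = 0.0243). Its call was lost without day 15 libraries 1 (0.0598), 5 (0.103) and day 8 libraries 4 (0.0731), 5 (0.0932), 6 (0.0869), adjusted p in brackets. Krt8, its partner keratin, had 1.79 (SE 0.59, adjusted p = 0.0865), with 0.56 against day 8 libraries 1 to 3 and 3.22 against libraries 4 to 6. Krt19, the keratin that marks the ducts, had 1.07 (SE 0.67, adjusted p = 0.427), and Spp1, osteopontin, 1.24 (SE 0.63, adjusted p = 0.305), with -0.13 against day 8 libraries 1 to 3. The median of the list between the days in sham mice was 0.43. There Krt8 and Krt19 stood at 1.78 and 2.34 (SE 1.5 and 0.91), so both were also positive without ligation. Krt18 and Spp1 stood at -0.25 and -1.29 in sham mice (SE 1.28 and 0.64).

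Stellate cell and fibrosis genes showed no common direction: of 21 tested genes of 38 in the table, 1 rose, 0 fell and the median was -0.19. Col1a1, the main collagen of scar, had -0.57 (SE 0.38, adjusted p = 0.455), and Col3a1 -0.55 (SE 0.48, adjusted p = 0.601; 0.34 without day 8 library 4). The member that rose was Fn1, fibronectin, which hepatocytes also secrete. It measured 209, 279.5 and 475 CPM at day 15, against 43.1, 128 and 264 CPM at day 8 (log2 fold change 1.22, SE 0.35, adjusted p = 0.0448), and its call was lost in 8 of the 12 refits, with an adjusted p of 0.134 without day 8 library 5. Against day 8 libraries 1 to 3 Fn1 stood at 0.73, and against libraries 4 to 6 at 1.75.

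The make-up of the hepatocyte-list counts also differed by day. Secreted proteins took 46.5% ± 4.03 of these counts at day 15 and 27.7% ± 10.6 at day 8 (SD, n = 6 each), and acute phase proteins 16% ± 2.5 and 10.6% ± 4.55. Complement and coagulation genes took 11.7% at day 15 and 28.9% at day 8. That list includes F5 and Pros1, and in the sham libraries it took 12.3% to 38.5%. Trf alone took 12.7% at day 15 and 6.77% at day 8, and Alb 10.2% and 5.3%. Day 8 library 3 had 46.9% secreted and 10.6% complement and coagulation counts, inside the day 15 ranges of 40% to 51.3% and 9.47% to 13.4%. Shares are of counts and were not scaled to gene length.

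**Figure D3:**
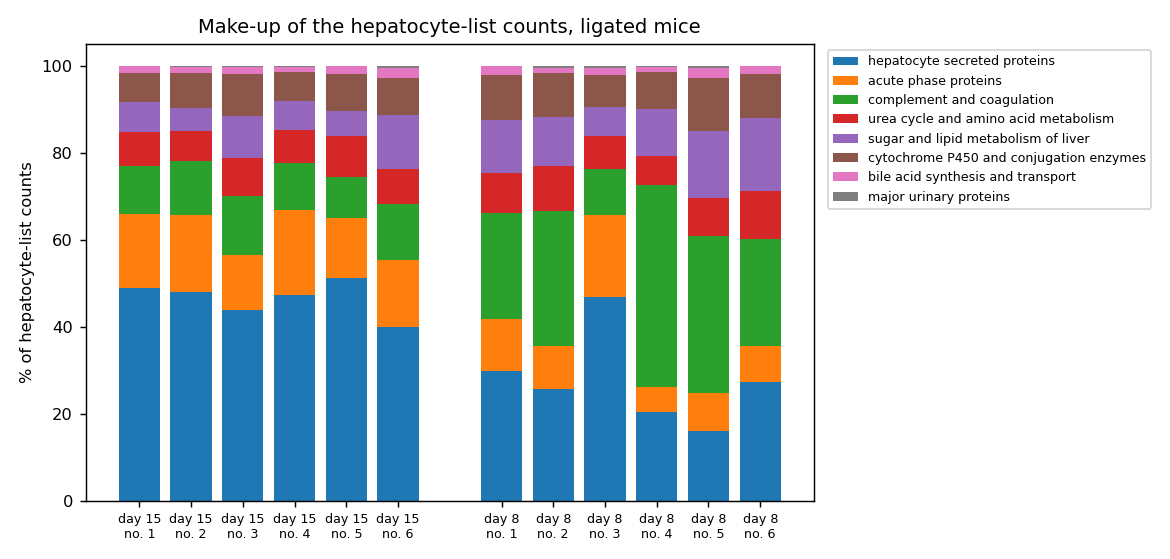
Share of the hepatocyte-list counts (%) held by each of the 8 lists in each ligated library, day 15 at left and day 8 at right. Secreted proteins (blue) take 40% to 51.3% at day 15, and among the day 8 libraries only number 3, at 46.9%, is in that range.

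Chd9 (chr8:90828352-91054516, plus strand), a chromatin remodeller that stood in no list and was chosen after its values were seen, had the smallest p of all genes. It measured 972, 2441 and 5948 CPM at day 15, against 171, 326 and 1072 CPM at day 8 (log2 fold change 2.74, SE 0.40, adjusted p = 0.000767). The 2 groups overlapped through day 8 library 3, at 1072 CPM, and day 15 library 4. The fold change was 2.27 against day 8 libraries 1 to 3 and 3.36 against libraries 4 to 6, and sham mice held 77.0 CPM at day 15 and 79.2 CPM at day 8. The 9 predicted genes led by Gm10800 held over 1% of counts in day 8 library 3 and in every day 15 library but number 3. Their shares were 0.128% to 12% at day 15, 30.9% in day 8 library 3 and 0.000426% to 0.404% in the other day 8 libraries, against 0.00698% to 0.039% in the sham libraries. Gm10800 itself was not called (log2 fold change -1.13, adjusted p = 0.711). The part of these gene models in the hepatocyte and Chd9 results was not tested.

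Other genes with a smaller and steadier change were Cyb5r3, the cytochrome b5 reductase, and Paip2b, an inhibitor of translation, both also chosen after their values were seen. Cyb5r3 measured 157, 177 and 239.7 CPM at day 15, against 76.6, 93.4 and 148 CPM at day 8 (log2 fold change 0.92, SE 0.17, adjusted p = 0.00312), and Paip2b 34.4, 38.9 and 55.1 CPM at day 15, against 5.28, 11.8 and 24.2 CPM at day 8 (log2 fold change 1.57, SE 0.29, adjusted p = 0.00214). In both genes every day 15 library lay above every day 8 library. P4hb, a protein disulfide isomerase of the endoplasmic reticulum, also did not overlap and rose by 0.98 (SE 0.24, adjusted p = 0.0214; lost without day 15 libraries 1 (0.0543), 5 (0.0685) and day 8 libraries 4 (0.0506), 5 (0.0841), 6 (0.0701)). Of the list of endoplasmic reticulum stress and heat shock genes P4hb was the 1 of 19 tested that rose.

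**Figure D4:**
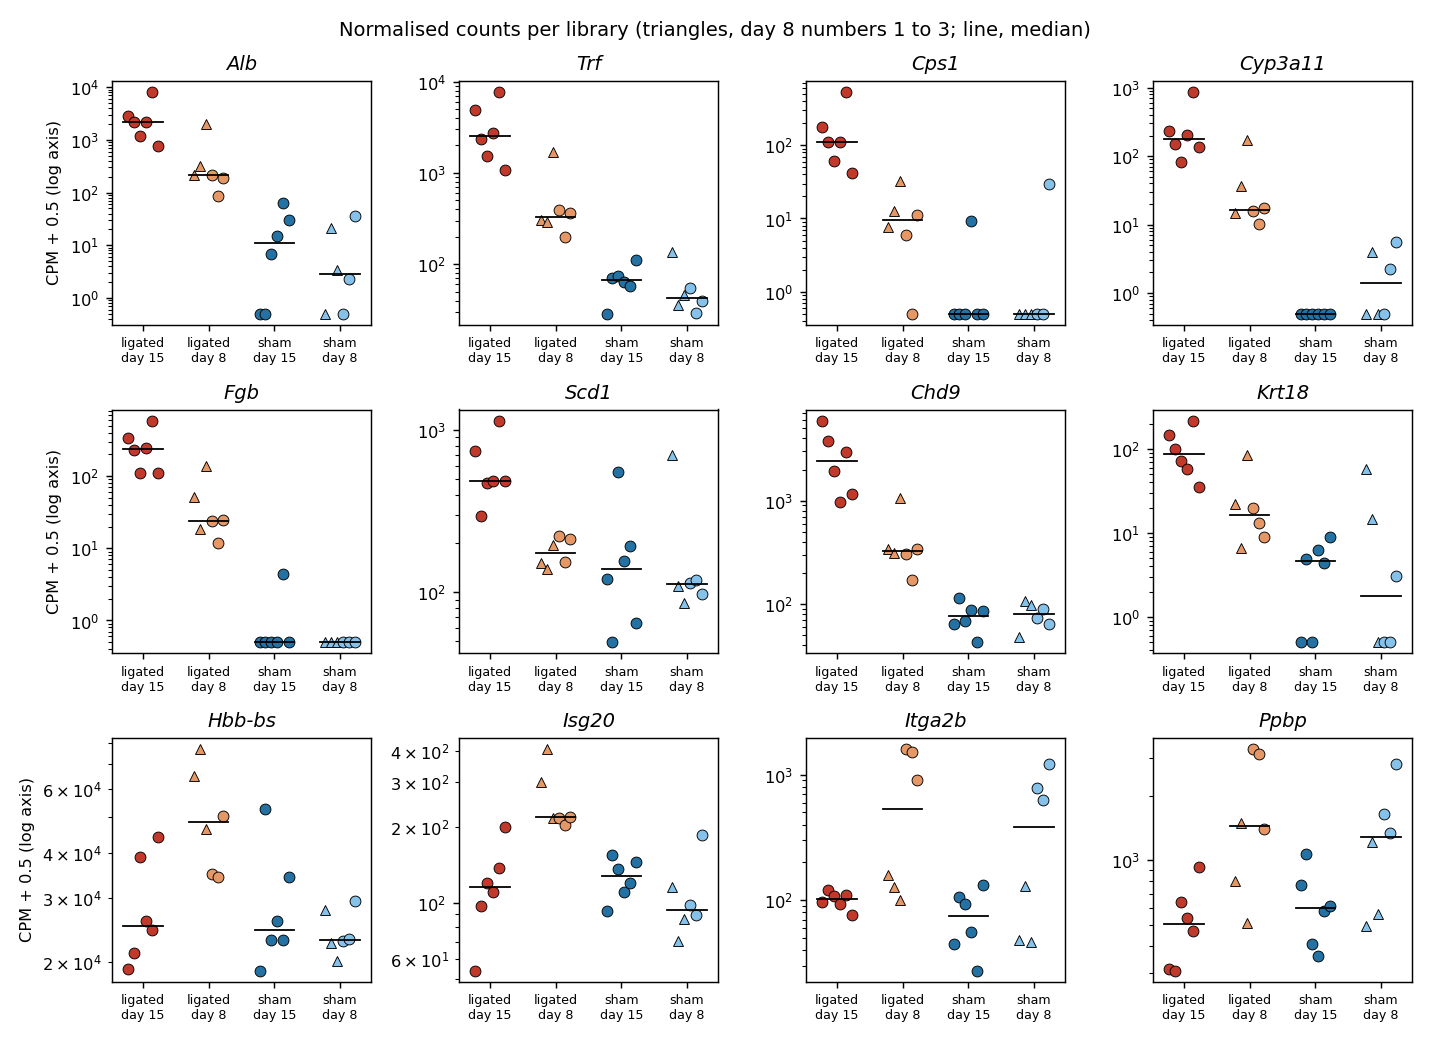
Normalised counts (CPM + 0.5, log axis) of 12 genes in every library of ligated day 15, ligated day 8, sham day 15 and sham day 8; triangles are day 8 libraries 1 to 3 and lines are medians. In the hepatocyte genes of the upper panels day 8 library 3 is the triangle nearest to the day 15 values, and for Itga2b day 8 libraries 4 to 6 stand above all others in both ligated and sham mice.

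Platelet genes were the largest group that fell. Of 43 tested genes of 47 in the table, 17 fell, 0 rose and all 43 were negative, with a median of -1.25. The fall was a difference from day 8 libraries 4 to 6: the median was -1.89 against these and -0.09 against libraries 1 to 3. Sham mice gave a median of -1.07 for day 15 over day 8. The platelet list held 1.12% to 1.57% of counts at day 15, and at day 8 0.85% to 1.68% in libraries 1 to 3 and 2.98% to 5.22% in libraries 4 to 6. In sham mice it held 1.2% to 1.8% at day 15, and at day 8 1.27% to 1.94% in libraries 1 to 3 and 2.9% to 4.55% in libraries 4 to 6. The number called was 0 without day 8 library 4, 1 without day 8 library 5, 2 and 5 without day 15 libraries 5 and 1, and 34 without day 8 library 3. Day 8 libraries 4 to 6 also had the largest totals, 661186 to 937963 counts, and their depth and their platelet content cannot be told apart.

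Itga2b (chr11:102453297-102470122, minus strand), the platelet fibrinogen receptor subunit, measured 76.0, 102 and 119.9 CPM at day 15, against 100.3, 536 and 1599.7 CPM at day 8 (log2 fold change -2.90, SE 0.69, adjusted p = 0.0202). The day 8 values were 100.3 to 158 CPM in libraries 1 to 3 and 914 to 1599.7 CPM in libraries 4 to 6. The call was lost without day 15 library 5 (0.0521) and day 8 libraries 4 (0.0639), 5 (0.0673), adjusted p in brackets. Treml1, Gp6 and Gp1ba, receptors of the platelet surface, fell by 2.57, 2.25 and 2.21 (adjusted p = 0.0165, 0.0202 and 0.013). Ppbp, a chemokine of alpha granules, measured 308, 505 and 932 CPM at day 15, against 512, 1444 and 3284 CPM at day 8 (log2 fold change -1.73, SE 0.42, adjusted p = 0.0202). Pf4, another granule chemokine, had -0.96 (SE 0.31, adjusted p = 0.0808). Each called gene of the platelet list, Ppbp, Treml1, Gp6 and Gp1ba included, lost its call without day 8 library 4, where their adjusted p was 0.0707, 0.0532, 0.0682 and 0.051.

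Outside the list the lower genes with the largest changes included Itga6, Angpt1, Itga2, Ltbp1, P2rx1 and Slc6a4, a laminin receptor subunit, an angiopoietin, a collagen receptor subunit, a latency protein of transforming growth factor beta, an ATP-gated channel and the serotonin transporter. Their log2 fold changes were -2.63, -2.41, -2.34, -2.32, -2.23 and -2.11. Against day 8 libraries 1 to 3 alone Itga6, Itga2 and P2rx1 stood at 0.17, 0.05 and 0.45, and Angpt1, Ltbp1 and Slc6a4 at -0.60, -0.44 and -0.58. Each was higher in day 8 libraries 4 to 6 than in libraries 1 to 3 (edgeR, adjusted p of 0.0166 or less). In sham mice each was also lower at day 15, from -1.09 for Angpt1 to -2.45 for Slc6a4. Of the vesicle protein list 2 of 33 tested genes fell, Cd9 and Cd81, tetraspanins of vesicle and platelet membranes, and 0 rose, with a median of -0.09. Cd9 measured 168, 236 and 372 CPM at day 15, against 244, 797 and 1437 CPM at day 8 (log2 fold change -1.69, SE 0.40, adjusted p = 0.0202). Against day 8 libraries 1 to 3 Cd9 and Cd81 stood at -0.7 and -0.3, and against libraries 4 to 6 at -2.2 and -1.6. Between the days in sham mice they stood at -1.2 and -0.6. None of these genes was called without day 8 library 4.

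Erythroid genes were lower by less, and against both sets of day 8 libraries. Of 36 tested genes of 54 in the table, 6 fell, 0 rose and 31 were negative; the median was -0.54, with -0.78 against libraries 1 to 3 and -0.34 against libraries 4 to 6. Sham mice gave 0.22. Hemoglobin genes held 4.14% to 9.32% of counts at day 15 and 7.48% to 15.6% at day 8, in overlap, against 5.72% to 12.1% in sham day 15 and 5.49% to 7.93% in sham day 8 libraries. Hbb-bs, the adult beta globin, measured 19180.2, 25179 and 44231 CPM at day 15, against 34304, 48407 and 77068 CPM at day 8 (log2 fold change -0.82, SE 0.24, adjusted p = 0.0448). Against day 8 libraries 1 to 3 Hbb-bs stood at -1.12, and against libraries 4 to 6 at -0.46. Hba-a1 and Hba-a2, the near-identical alpha globins, fell by 0.80 and 0.83 (adjusted p = 0.0442 and 0.0358). Each globin lost its call without several of the ligated libraries, the highest adjusted p being 0.122 for Hbb-bs, 0.113 for Hba-a1 and 0.0949 for Hba-a2, all without day 15 library 1 or 5. Without day 15 library 1, 2, 4 or 5, or without day 8 library 1, 2 or 6, 1 erythroid gene was called.

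That gene was Isg20 (chr7:78913424-78920396, plus strand), an RNA exonuclease induced by interferon that stood on the erythroid list. It measured 53.5, 115 and 199.6 CPM at day 15, against 203, 217 and 405 CPM at day 8 (log2 fold change -1.09, SE 0.25, adjusted p = 0.0177), without overlap, and stayed called without any 1 ligated library. The fold change was -1.35 against day 8 libraries 1 to 3 and -0.82 against libraries 4 to 6, and 0.21 between the days in sham mice. Ucp2, a mitochondrial carrier, measured 285, 389 and 545 CPM at day 15, against 467, 712 and 782 CPM at day 8, in overlap (log2 fold change -0.68, SE 0.20, adjusted p = 0.0438; highest adjusted p 0.111 without 1 library). Alas2, the first enzyme of erythroid heme synthesis, had -0.86 (SE 0.27, adjusted p = 0.0655).

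Interferon response genes had a median of -0.57 over 28 tested of 46 in the table, 25 being negative; 3 fell and 0 rose. The median was -0.78 against day 8 libraries 1 to 3, -0.28 against libraries 4 to 6, and -0.25 between the days in sham mice. Ifi27l2a measured 32.4, 39.9 and 66.7 CPM at day 15, against 68.6, 91.7 and 127 CPM at day 8 (log2 fold change -0.96, SE 0.23, adjusted p = 0.0177), without overlap; its call was lost without day 15 library 5 (0.0521) and day 8 libraries 4 (0.0581), 5 (0.0557). B2m, the light chain of class I molecules, fell by 1.06 (SE 0.27, adjusted p = 0.0251). It stood at -0.71 against day 8 libraries 1 to 3 and at -1.32 against libraries 4 to 6. Between the days in sham mice Ifi27l2a and B2m stood at -0.44 and -0.79. B2m lost its call in 5 of the refits, with an adjusted p of up to 0.0932, without day 8 library 5. The list had 0 calls without day 15 library 5, day 8 library 4 or day 8 library 5, 1 without day 15 library 1 or 2, and 6 without day 8 library 3.

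Few markers of other cells were called. Of the inflammatory monocyte list 1 of 18 tested genes rose (Fn1), of the neutrophil list 1 of 10 (Wfdc21), of the T and NK cell list 1 of 6 (Ccl5, a chemokine, 1.06, adjusted p = 0.0336) and of the endothelial list 1 of 21 (Flt1, a receptor of vascular endothelial growth factor, 1.39, adjusted p = 0.0336), and the endothelial list also held 1 that fell, Vwf, which platelets carry too. Each of these calls was lost in 6 to 10 of the 12 refits without 1 ligated library, that without day 8 library 4 among them. Between the days in sham mice Fn1, Wfdc21, Ccl5, Flt1 and Vwf stood at 0.29, 2.39, -0.13, 0.59 and -0.71. The neutrophil list had a median of 2.1 in sham mice and of -0.17 in ligated mice. Flt1 stood at 0.68 against day 8 libraries 1 to 3 and at 1.84 against libraries 4 to 6. Heart and muscle genes were positive in 8 of 9 tested, with a median of 0.64 and 0 called, 0.22 against day 8 libraries 1 to 3 and 0.51 between the days in sham mice. Adipocyte genes held 0.0923% to 0.153% of counts at day 15 and 0.0498% to 0.0685% at day 8, without overlap. In sham mice they held 0.0611% to 0.153% at day 15 and 0.0447% to 0.138% at day 8, ranges that reach over both. The median was 0.48 over 6 tested genes, of which Scd1, also on the liver lipid list, rose. It was -0.02 against libraries 1 to 3 and 0.44 in sham mice. The 2 tested cartilage and bone genes had a median of 1.10, and -0.32 against libraries 1 to 3. In the Kupffer cell list 0 of 3 tested genes passed the test and in the B cell list 0 of 15. The 3 pancreas markers had 4 counts in all at day 15 and 2 at day 8, with Pnlip at 0 throughout, and the 2 intestine markers 48 and 31. Cytosolic ribosomal protein genes were positive in 79 of 80, with a median of 0.22 and 1 called (Rps27a, 0.43, adjusted p = 0.0498, lost in 10 of the 12 refits); the median was 0.04 against day 8 libraries 1 to 3 and 0.40 against libraries 4 to 6. Replication-dependent histone genes were negative in 44 of 50 tested, with 0 called and a median of -0.51, -0.65 against libraries 1 to 3, -0.35 against libraries 4 to 6 and 0.68 between the days in sham mice.

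**Figure D5:**
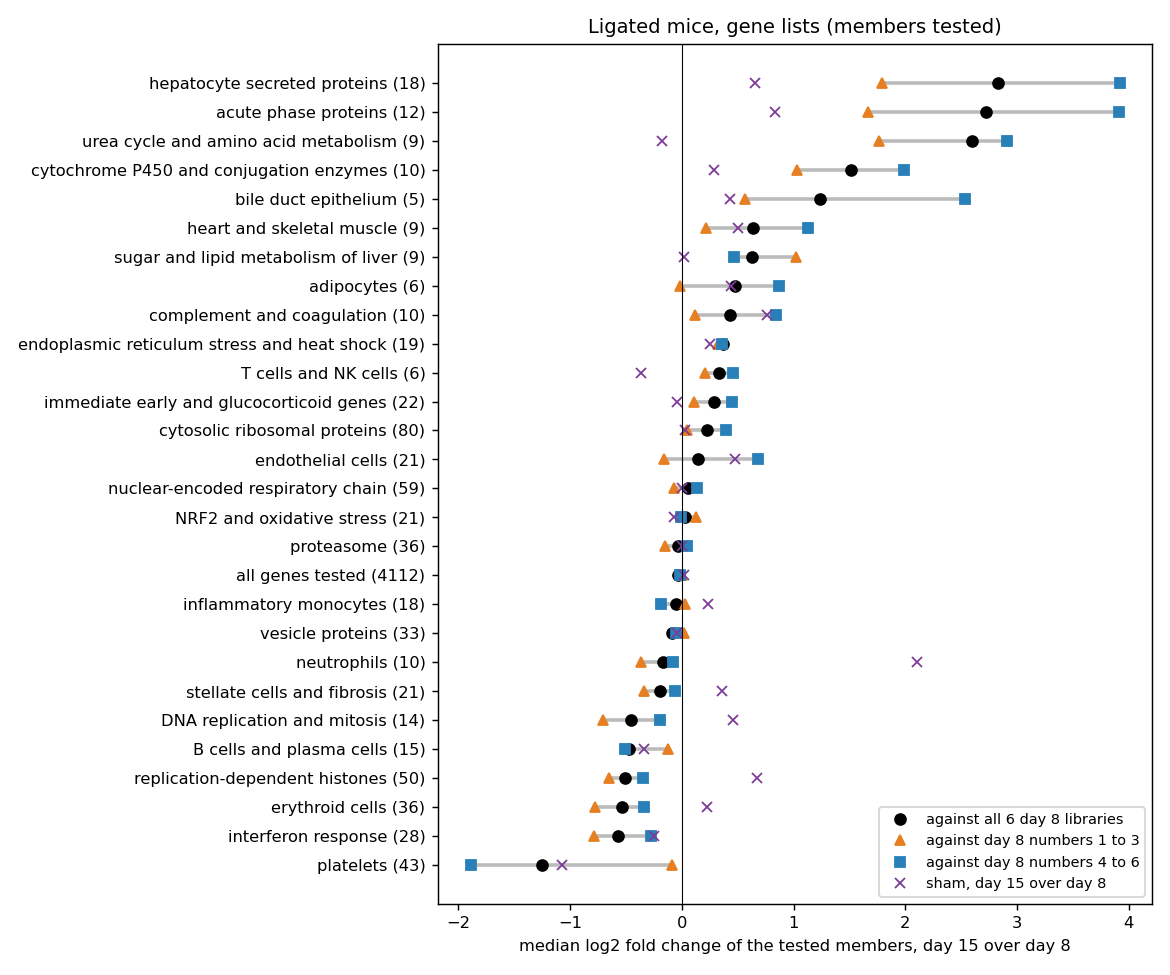
Median log2 fold change, day 15 over day 8, of the tested members of each list with 5 or more tested genes: against all 6 day 8 libraries (circles), against libraries 1 to 3 (triangles), against libraries 4 to 6 (squares) and between the days in sham mice (crosses). The hepatocyte lists lie above 0 against both sets, and the platelet list lies at -0.09 against libraries 1 to 3 and at -1.89 against libraries 4 to 6.

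In sham mice edgeR called 0 genes between day 15 and day 8, with 439 at an unadjusted p under 0.05 and a smallest adjusted p of 0.146. The difference between the change by day in ligated mice and that in sham mice was tested as an interaction, and 0 of 4112 genes were called, with 234 at an unadjusted p under 0.05. The smallest adjusted p of that test was 0.177, for Chd9. A change by day particular to ligated mice was therefore not detected for any single gene at this depth. In the sham mice Trf was at 67.6 CPM at day 15 and 56.3 CPM at day 8, with a difference of 2.22 between the changes in ligated and sham mice (SE 0.72, adjusted p = 0.709). The means of Fgb lay under the limit that 0 counts allow in a sham library, 8.68 to 18.5 CPM at day 15 and 3.82 to 28.7 CPM at day 8, with 0.642 CPM at day 15 and 0 CPM at day 8 (SE of the difference 3.08). The 93 higher genes had a median of 0.35 in sham mice, and the 86 lower genes -0.92.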

How the data were processed

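RNA of plasma extracellular vesicles was measured in 24 libraries, 12 from ligated mice. The authors deposited expected counts per gene, written as whole numbers. The tools were STAR and RSEM, per the submitters' processing notes, with versions not given in the sources used here. Those notes name hg38, but the gene identifiers are those of mouse: 21860 of 21960 were found in GENCODE M21, from which coordinates (GRCm38) were taken. The build used for alignment is not established. RSEM divides reads shared by similar genes, and strand in counting is not stated.

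Low genes were removed by filterByExpr of edgeR (count of 10, total of 15), and the rest scaled by TMM and fitted over all 24 libraries by group with edgeR 4.0.16 (glmQLFit, glmQLFTest; R 4.3.3, limma 3.58.1), with Benjamini-Hochberg adjustment over the 4112 genes tested and a threshold of 0.05. CPM are TMM-normalised. DESeq2 1.42.0, other scalings and filters, thinning to 167939 counts, leaving out each library and either set of day 8 libraries were alternatives. The scripts were tested on simulated data. Genes named are the 15 largest changes per direction with at least 5 CPM, up to 4 members per list by p, a listed set and those said to be chosen after their values were seen; predicted genes were counted, not named, except those of day 8 library 3, and some named genes are not reported here. The members and lists were chosen with earlier results of these data known. No 2 replicates were alike within sampling noise (chi-square per degree of freedom at least 1.85). Intervals and limits cover counting error only. RefSeq promoters are of GRCm38.p6.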

Additional observations from a re-analysis of the deposited data

Results flagged for a closer look

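In 20 of 260 sets of 6 libraries tested for a library far from the other 5 (named genes and list shares, log scale), a library stood apart by Dixon's criterion; chance gives about 1 in 20. In day 8 library 3 these were Trf at 1700 CPM, Ahcy at 79.2, Serpina3k at 89.8, Mug1 at 95 and Hmgcs1 at 84.5, all its group's highest. Its secreted protein list held 0.471% of counts, against 0.059% to 0.127% in the other 5 day 8 libraries, and its acute phase list 0.189%, against 0.0316% to 0.0487%. Lars2 held 31.6% there, against 43.5% to 48.3%, and respiratory chain genes 0.259%, against 0.324% to 0.367%, beside 30.9% for the 9 predicted genes. Without day 8 library 3 the number of higher genes was 160 and of lower genes 176.

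In day 8 library 5 lung epithelium genes held 0.121% of counts, against 0.000974% to 0.00179% in the other 5. Kidney genes held 0.00734% in day 8 library 4, against 0.00203% to 0.00329%, and 0.00241% in day 15 library 3, against 0.0053% to 0.00794%. In day 15 library 5, the library with the highest hepatocyte share, Gstm3 was at 187 CPM and the NRF2 list at 0.871%, against 0.644% to 0.7%. Day 15 library 3 was low for Ltbp1 (10.8 CPM) and for immediate early genes (0.155%, against 0.177% to 0.191%) and high for Slc6a4 (46.9 CPM). Serpina1c was at 0 in day 8 library 2 (up to 18.2 CPM allowed), Treml1 at 0 in day 15 library 2 (up to 9.72 CPM allowed) and Sytl4 at 6.34 CPM in day 15 library 6.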

How the results depend on the processing

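Against day 8 libraries 1 to 3 alone 0 genes were called in either direction, and against libraries 4 to 6 254 higher and 325 lower; with the filter recomputed for the split, an alternative chosen after seeing the data, 0 and 0, and 338 and 333. Without a filter 377 were higher and 275 lower, with a mean of at least 5 CPM 253 were higher, with counts thinned 54 and 30, with library totals alone 54 were lower, and with the replicate number as a block, ligated libraries only, 1 (Gstm3) and 0; same-number correlations of -0.276 to 0.0803 over the 6 numbers, with 0 of 6 best at their own, do not pair the libraries. Leaving out 1 library gave 29 to 160 higher and 5 to 176 lower. DESeq2 size factors, DESeq2's test, the ligated libraries alone and the table without Lars2 and hemoglobin genes gave counts within 1.5 times. Similar counts did not mean the same genes. Of 84 called genes followed singly, 19 lost their call with DESeq2's test, 19 with the ligated libraries alone and 0 with DESeq2 size factors. Among those 84, the genes positive against libraries 1 to 3 though negative over all 6 were Itga2 (0.051), P2rx1 (0.45), F5 (0.046), Itga6 (0.17) and Sytl4 (0.68). Over all 86 lower genes, 72 were negative against libraries 1 to 3. Spp1, which was not called, turned to -0.13. Col3a1 lay between -0.77 and 0.34 without 1 library. List medians against libraries 1 to 3 and 4 to 6 were 1.79 and 3.92 for secreted proteins, 1.67 and 3.91 for acute phase proteins, 0.56 and 2.53 for bile duct, -0.16 and 0.69 for endothelial, -0.016 and 0.87 for adipocyte, 0.11 and 0.45 for immediate early and 0.044 and 0.40 for ribosomal protein genes; against libraries 1 to 3 they were 1.76 for urea cycle, 1.02 for sugar and lipid and -0.086 for platelet genes. Without 1 library, medians ranged from 2.36 to 3.81 for acute phase genes, from 1.67 to 2.99 for urea cycle genes, from 0.88 to 1.84 for bile duct genes, from 0.082 to 0.43 for endothelial genes and from -0.15 to 0.89 for muscle genes. The hepatocyte share differed by 1.64 points, by 3.5 without Lars2 and hemoglobin genes in the total and by 1.08 to 1.9 without 1 library. Mean total counts, day 15 minus day 8, differed by 142400 against libraries 1 to 3 and by -423500 against libraries 4 to 6, and genes with a count 577.5 more than in libraries 4 to 6. The cause of these shifts was not tested. Depth limits the low genes: 4112 of 21960 could be tested.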

Other observations

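Genes of the stress hormone and immediate early list were positive in 17 of 22 tested, with 2 that rose and a median of 0.29. These were Ddit4, an inhibitor of growth signalling induced by glucocorticoids (log2 fold change 1.35, SE 0.39, adjusted p = 0.0449), and Errfi1, a feedback inhibitor of the epidermal growth factor receptor (log2 fold change 2.24, SE 0.54, adjusted p = 0.0202). Ddit4 stood at 0.56 against day 8 libraries 1 to 3 and at 1.97 against libraries 4 to 6. Ddit4 was called in 1 of the 12 refits without 1 ligated library, that without day 8 library 3, and Errfi1 in 7, losing its call without day 15 libraries 1 (0.0589), 5 (0.0938) and day 8 libraries 4 (0.0707), 5 (0.0729), 6 (0.0668), adjusted p in brackets. Genes of DNA replication and mitosis were negative in 13 of 14 tested, with 0 called by edgeR and a median of -0.46, against 0.46 between the days in sham mice. Of 36 tested proteasome genes 1 rose, Psmc1 (log2 fold change 0.77, SE 0.20, adjusted p = 0.0243), a call lost without day 15 library 1, 2 or 5 or day 8 library 4 or 5, and the list's median was -0.03. Of 59 respiratory chain genes 0 were called by edgeR, with a median of 0.05.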
